A study of Mus musculus with 24 samples.

Results

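The genes that drive and carry out cell division were followed in the embryonic mouse jaw, in embryos labelled as knockouts of the receptor Tgfbr2 in the neural crest and in their control littermates. They were taken as a list of 44 genes by name, 10 acting in G1 and at the start of S phase, 13 in S phase and 21 in G2 and mitosis. On the arrays 43 of them could be followed, of 18193 genes with a probe set, each by the brightest of its probe sets. All 43 passed a filter that asked for a signal above the 30th percentile of the array in at least 3 arrays, which 14879 genes passed in all. The mitosis gene Ccnb1 is not analysed here, so 20 mitosis genes remained.

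RNA came from C57B6 embryos at embryonic day 12.5 and was measured on 24 single-colour arrays as log2 signal. Parents were Wnt1cre;Tgfbr2fl/+ and Tgfbr2fl/fl mice, so every embryo carried at least 1 floxed allele from the second parent. Embryos labelled Tgfbr2 knockout were recognised by a cleft palate and a defect of the calvaria and were set against control littermates. The labels do not name the alleles of the controls, or whether they carried Wnt1cre. Per genotype the labels give the distal mandible, the proximal mandible, the distal maxilla and the proximal maxilla, with 3 arrays each, numbered 1 to 3. Wnt1-Cre acts in the neural crest, the source of most jaw mesenchyme and of the glia. Skeletal muscle, blood, the endothelium of vessels and epithelium have another origin and keep the gene. The labels tie no array to an embryo, so p-values measure the spread between arrays, which may be technical. In such pieces of tissue, fewer dividing cells and less of a transcript in each cell cannot be told apart.

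A cell that divides passes from G1 into S phase, where its DNA is copied, and then through G2 into mitosis. D cyclins with Cdk4 and E cyclins with Cdk2 start the passage by releasing E2F factors from Rb, and Cdkn1b holds these kinases back. E2F targets such as the Mcm helicase, Pcna and the ribonucleotide reductase subunits serve DNA replication, and a later wave of genes, read by Foxm1 and B-Myb with the MuvB complex, serves mitosis. TGF-beta halts the cycle in G1 in many epithelial cells, whereas in cranial neural crest cells it is known to favour growth at some stages. The genes are therefore grouped by phase.

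The deleted gene gave no check of the labels. The brightest of its 3 probe sets ranged over 11.30, 12.19 and 12.68 (lowest, median and highest of 12 knockout arrays), against 11.28, 11.76 and 12.16 in controls, a difference of 0.34 ± 0.12 (SE, limma adjusted p = 0.112). No source used here places these probes inside or outside the deleted part. Array medians lay between 7.26 and 7.38. By their whole profile, 7 of 24 arrays stood closer to the other end of the same jaw and genotype than to their own group. They were both ends of knockout mandible 1 and of control maxilla 1. Knockout mandible distal 2, control maxilla distal 2 and knockout maxilla proximal 3 made up the rest. Results are therefore also given without the 4 arrays numbered 1 of knockout mandible and control maxilla where that changes them. The others were kept there. Of 8 mesenchyme markers, all 8 were above the filter level on every array, as were 12 of 12 epithelial, 6 of 12 skeletal muscle and 8 of 12 neuronal markers. The Y-linked gene Eif2s3y read 10.22 to 10.41 in the 4 control arrays numbered 2 and 3.43 to 3.88 in the other 20, so these 4 arrays differ from the rest in sex.

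Across the 4 regions the mean of every mitosis gene was lower in knockout jaws, by small amounts that did not pass the adjusted threshold gene by gene. The 20 mitosis genes all had a mean change below 0, with a median of -0.151 on the log2 scale, while the median of all genes tested was 0.00821 and 46.3% of them lay below 0. S phase genes lay below 0 in 11 of 13 cases, with a median of -0.0844, and G1 genes in 6 of 10, with a median of -0.0297. Genes of a list moved together between arrays, so here and below such counts are not separate observations. Between the ends of the knockout mandible, leaving out single arrays gave 0 to 20 of 20 mitosis genes lower distally. Without blocks by array number, no cell cycle gene passed an adjusted p of 0.05 in this comparison, which called 70 genes in all (0.47%). By unadjusted p under 0.05 in the limma fit, 17 of 20 mitosis and 6 of 13 S phase genes were lower, against 10.6% of all genes tested (23.2% in either direction). Over the same regions the knockout means were higher in 12 of 12 skeletal muscle markers (median 1.91, 0 called), 5 of 5 glial markers (median 0.586, 1 called) and 12 of 12 macrophage markers (median 0.285, 0 called). They were lower in 7 of 7 erythroid markers (median -0.201, 0 called) and 6 of 8 mesenchyme markers (median -0.178, 0 called). The part of these lists was not tested.

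The smallest p belonged to Ube2c, the E2 ubiquitin enzyme of the anaphase-promoting complex, at -0.20 ± 0.05 (SE, adjusted p = 0.0568). Foxm1, the forkhead factor of G2 genes, gave -0.25 ± 0.07 (adjusted p = 0.0643), and Ttk, the Mps1 kinase of the spindle checkpoint, gave -0.23 ± 0.07 (adjusted p = 0.08). All these changes are small beside the differences between arrays of 1 group described for the proximal maxilla. In 15 of 20 mitosis genes and 8 of 13 S phase genes the knockout mean was the lower one in all 4 regions, as in 13.9% of all genes tested. In each region knockout array 1 had the lowest mean deviation of the mitosis genes in its group. It was -0.307 and -0.174 in the distal and proximal mandible, and -0.0595 and -0.551 in the distal and proximal maxilla. The same arrays had the lowest erythroid values of all 24, at -0.632, -0.52, -0.495 and -0.599. Whether the regions are separate observations was not tested. All 38 probe sets tested for the 20 mitosis genes gave a change below 0. Without the proximal maxilla arrays knockout 1 and 2 the mitosis median was -0.0984, with 20 of 20 genes still below 0 and 7 instead of 17 under an unadjusted p of 0.05. Single arrays also decided the count of calls, where 18 genes passed without knockout maxilla proximal 3. The count was 6 with knockout mandible distal 3 left out, 2 with knockout maxilla distal 3 left out and 1 with control maxilla distal 1 left out.

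The D cyclins, which open G1 with Cdk4 and Cdk6, did not share that direction. Ccnd1, Ccnd2 and Ccnd3 gave 0.10 ± 0.08, 0.12 ± 0.05 and 0.12 ± 0.06 (adjusted p = 0.463, 0.193 and 0.209), so none passed the test. Their partner kinase Cdk4 gave -0.0092 ± 0.03, and the inhibitor Cdkn1b gave -0.06 ± 0.04. Ccnd3 was the one G1 gene with a higher knockout mean in all 4 regions.

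**Figure D1:**
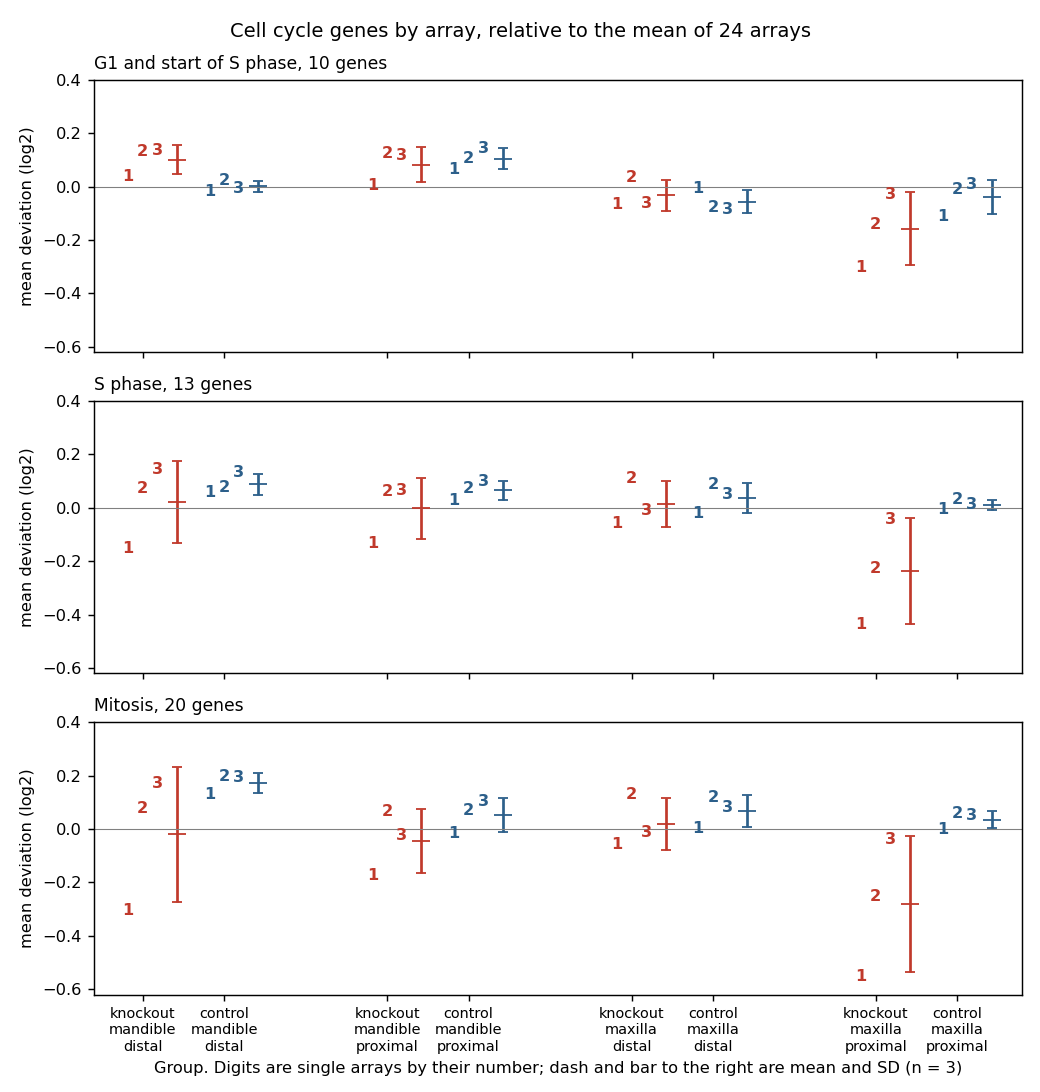
Mean deviation of the 10 G1, 13 S phase and 20 mitosis genes from their mean over 24 arrays (log2, vertical axis) for the 8 groups (horizontal axis, knockout left of control in each region). Digits are single arrays by number, and the dash and bar beside them are mean and SD of 3 arrays. The lowest mitosis values are knockout maxilla proximal 1 at -0.551, knockout mandible distal 1 at -0.307 and knockout maxilla proximal 2 at -0.251.

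The median shift was largest in the proximal maxilla, the region with the one set of calls. There Plk1, the polo kinase of mitotic entry, read 11.18, 11.32 and 11.71 in knockout arrays, against 11.98, 11.85 and 11.82 in controls. Ube2c read 12.62, 12.75 and 12.96 in knockouts, against 13.22, 13.10 and 13.14 in controls. E2f1, the activator of S phase genes, read 9.87, 9.92 and 9.81 in knockouts, against 10.16, 10.11 and 10.21 in controls. The knockout arrays were below every control array for all these genes, by a wide gap in array 1 and a narrow one in array 3 for Plk1. The changes were -0.48 ± 0.13 for Plk1 (adjusted p = 0.039), -0.38 ± 0.10 for Ube2c (adjusted p = 0.0395) and -0.29 ± 0.08 for E2f1 (adjusted p = 0.0497).

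These 3 of 43 genes fell, where 5.77% of all genes tested were called and 2.53% were called lower, so the count is not far from that of the array as a whole. The common direction was wider, with 20 of 20 mitosis genes (median -0.324) and 13 of 13 S phase genes (median -0.201) below 0. Of all genes tested 50.9% lay below 0. As these genes moved together between arrays, their number adds no separate observations to the 3 arrays of each genotype. In 13 mitosis, 4 S phase and 2 G1 genes every knockout array lay below every control array, as in 14.6% of all genes tested. Among the S phase genes without overlap were Cdc45, which acts in firing replication origins, Cdt1, which loads the helicase onto them, and Rrm2, a small ribonucleotide reductase subunit. They gave -0.52 ± 0.16, -0.32 ± 0.11 and -0.33 ± 0.12 (adjusted p = 0.0576, 0.0772 and 0.101).

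The markers of dividing cells showed how unlike the 3 knockout arrays of this region were. Mki67, the proliferation antigen of the chromosome surface, read 12.57, 12.99 and 13.08 in knockouts, against 13.13, 13.19 and 13.14 in controls. Top2a, the topoisomerase that untangles chromosomes, read 12.73, 12.94 and 13.13 in knockouts, against 13.19, 13.18 and 13.15 in controls. Array 1 was the lowest and array 3 came close to the controls in both, so the 3 knockout arrays did not differ from the controls by a like amount. Cdk1, the kinase that drives mitosis, read 11.90, 11.96 and 12.24 in knockouts, against 12.33, 12.31 and 12.26 in controls. Cdc20, which directs the anaphase-promoting complex, read 12.50, 12.79 and 13.05 in knockouts, against 13.10, 13.04 and 13.05 in controls, and knockout 3 lay among the controls.

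Mcm5, a subunit of the replicative helicase, read 12.70, 12.75 and 12.99 in knockouts, against 12.94, 13.02 and 12.99 in controls. Pcna, the sliding clamp of DNA polymerase, read 13.38, 13.49 and 13.45 in knockouts, against 13.39, 13.53 and 13.51 in controls. For both the groups overlapped, and Pcna hardly differed (-0.04 ± 0.06). Ccnd1 read 12.74, 12.95 and 13.08 in knockouts, against 12.71, 13.05 and 13.02 in controls, and Ccnd2 read 13.20, 13.50 and 13.68, against 13.59, 13.37 and 13.54. Cdkn1b read 11.64, 11.93 and 11.79 in knockouts, against 11.95, 11.80 and 11.83 in controls. The D cyclins and the inhibitor thus overlapped between the genotypes, whereas 13 of 20 mitosis genes did not.

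Other cell types moved with this shift. The 12 neuronal markers, as a mean deviation from all arrays, stood at 3.19, 2.96 and 1.24 in the knockout proximal maxilla, against -0.03, 0.31 and 0.27 in controls. Skeletal muscle markers stood at 2.09, 0.80 and -0.61, against -2.50, -1.86 and -2.01, and glial markers at 1.66, 1.41 and 0.45, against -0.73, 0.21 and 0.09. Mesenchyme markers stood at -0.57, -0.70 and -0.17 in knockouts, against 0.31, -0.18 and -0.13 in controls, and epithelial markers at -1.64, -1.63 and 0.08, against 0.55, 0.03 and 0.10. Knockout arrays 1 and 2 were thus both the richest in neuronal markers and the poorest in mitosis genes of this region. The 3' minus 5' difference of the Actb control probe sets, a sign of RNA quality, did not overlap between the genotypes in this region. It stood at 0.321, 0.313 and 0.346 in knockouts, against 0.520, 0.380 and 0.371 in controls. That of Gapdh overlapped, at 0.139, 0.0754 and 0.207 in knockouts, against 0.388, 0.148 and 0.158 in controls. The part of these cells and of RNA quality in the fall was not tested. With both arrays left out, the mitosis median in the proximal maxilla was -0.0728, with 17 of 20 genes below 0, the S phase median was -0.0284, and 0 of 43 genes were called (adjusted p in limma; 1 by unadjusted p under 0.05). Leaving out knockout 1 or 2 alone, or any 1 of the 3 controls, also left 0 genes called, as did leaving out control mandible proximal 2, which enters through the shared variance. Without knockout 3, by contrast, 24 of 43 genes were called, and without knockout mandible distal 1 there were 9. Without both ends of knockout mandible 1 and control maxilla 1, 4 arrays, 0 were called, with a mitosis median of -0.312. Without the 4 control arrays numbered 2 the count was also 0. Knockout 3 of the proximal maxilla, which these settings keep, also stood closer to the other end (mean correlation 0.378) than to its own group (0.205).

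**Figure D2:**
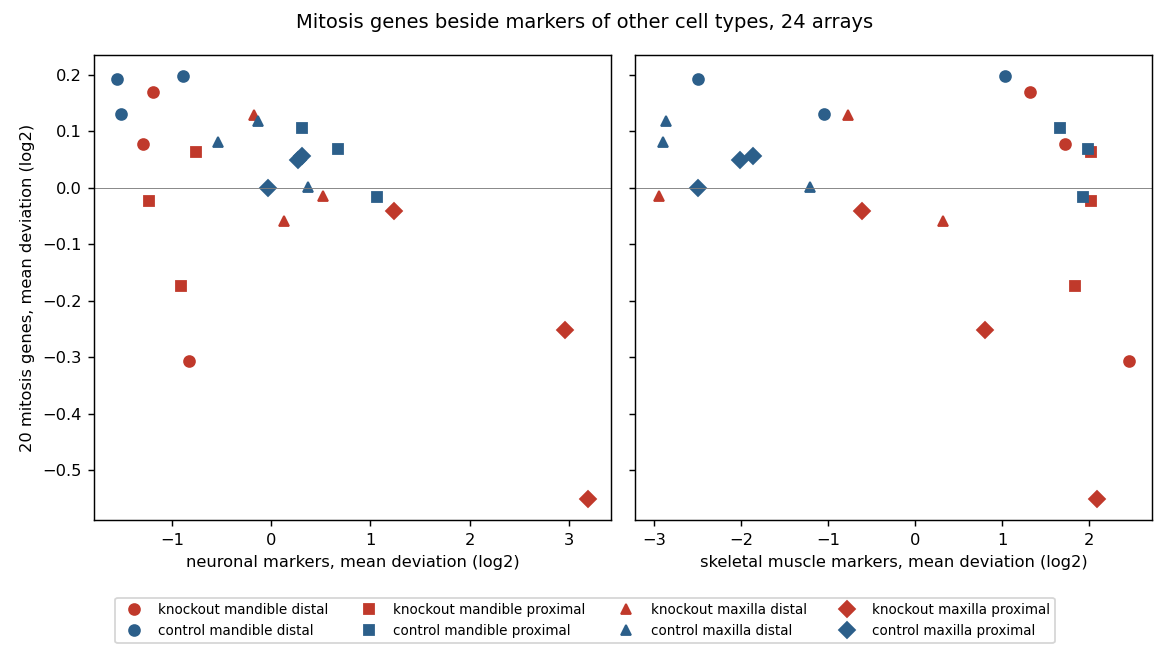
Mean deviation of the 20 mitosis genes (vertical axis, log2) beside that of the neuronal markers (left panel) and the skeletal muscle markers (right panel) in each of 24 arrays, red for knockout and blue for control, with a symbol for each region. Knockout maxilla proximal 1 and 2 lie alone at the right of the neuronal panel, at 3.19 and 2.96, and knockout mandible distal 1 has the highest muscle value, 2.46.

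**Figure D3:**
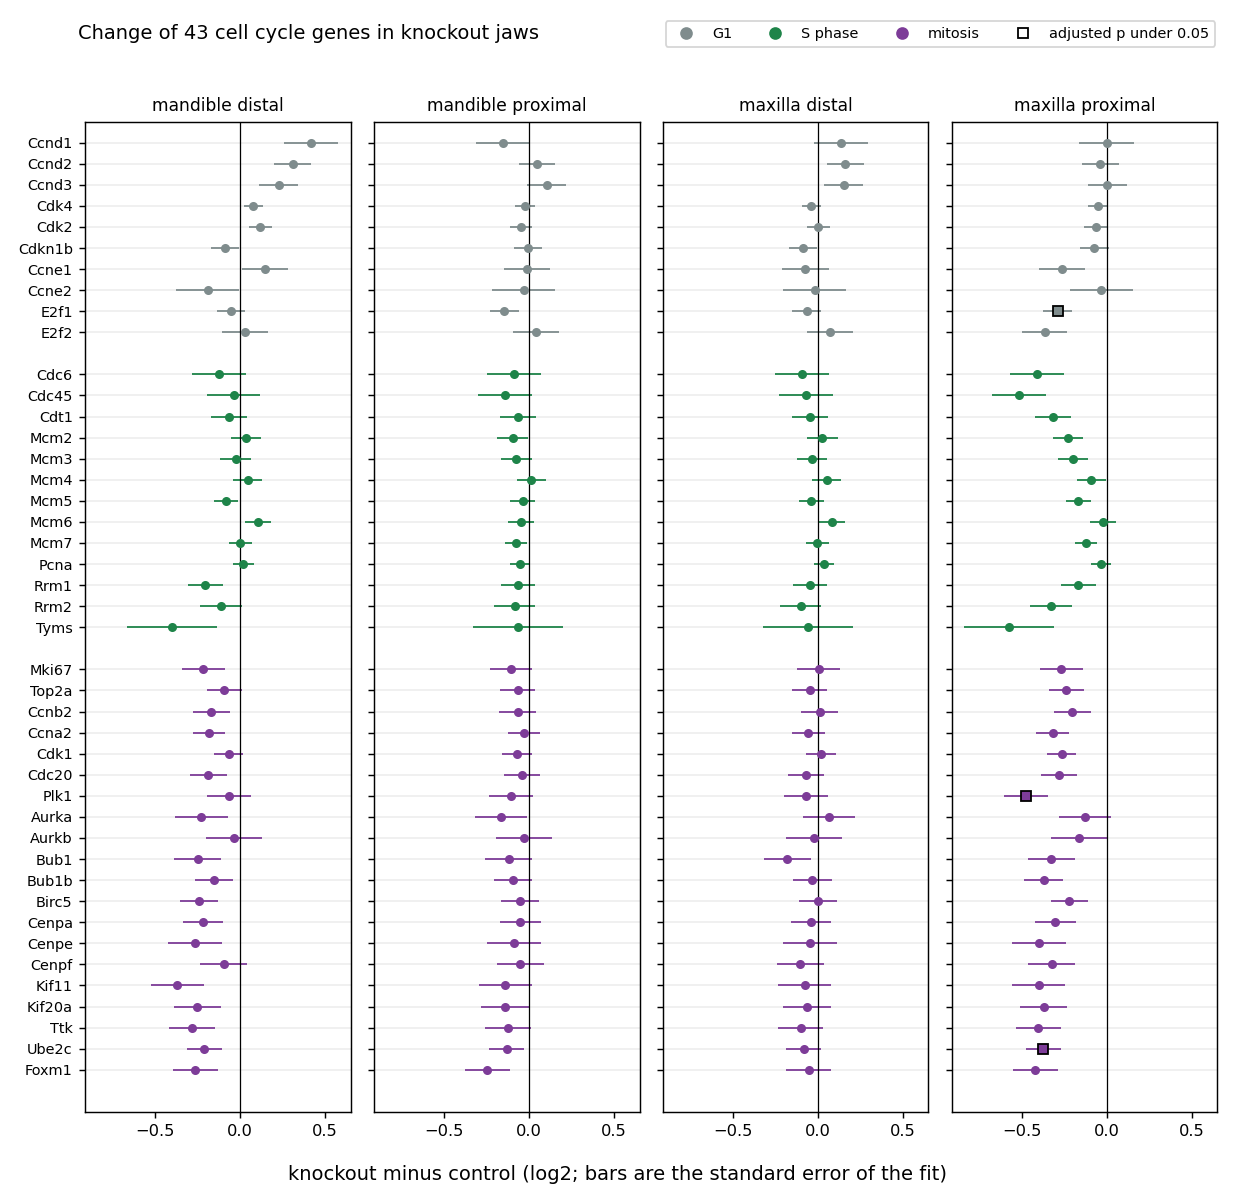
Difference of knockout and control means (horizontal axis, log2, with the standard error of the fit) for 43 cell cycle genes (rows, grouped by phase) in the 4 regions. Squares with a black edge passed an adjusted p of 0.05, which 3 genes did, all in the proximal maxilla. The mitosis genes lie left of 0 in 20 of 20 cases in 3 regions and in 15 of 20 in the distal maxilla.

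In the distal mandible, the means of D cyclins and of mitosis genes lay on opposite sides of 0. Ccnd1 read 13.24, 13.04 and 12.90 in knockouts, against 12.65, 12.71 and 12.56 in controls, and Ccnd2 read 13.48, 13.65 and 13.56, against 13.38, 13.28 and 13.10. Each knockout array was above each control array for both, as for 7.66% of all genes tested. The differences were 0.42 ± 0.16 (adjusted p = 0.272) and 0.31 ± 0.11 (adjusted p = 0.234), so neither passed the test. All 20 mitosis genes lay below 0, with a median of -0.214, as did 46.3% of all genes tested. Of these Kif11, the motor that separates the spindle poles, gave -0.37 ± 0.16 (adjusted p = 0.332). For 3 of the 20, Birc5, Kif11 and Ttk, every knockout array lay below every control array, as for 6.86% of all genes tested. No cell cycle gene was called here (20 genes in all, 0.134%), and 5 had an unadjusted p under 0.05, a rule that 12.6% of all genes passed.

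The size of the mitosis shift in the distal mandible rested on 1 array. Mki67 read 12.71, 13.22 and 13.28 in knockouts, against 13.34, 13.23 and 13.29 in controls, and Top2a read 12.80, 13.20 and 13.18, against 13.16, 13.18 and 13.13. Cdk1 read 12.05, 12.30 and 12.34 in knockouts, against 12.29, 12.36 and 12.24 in controls, and Cdc20 read 12.62, 12.91 and 12.95, against 13.05, 12.95 and 13.06. Knockout 1 was the lowest array for each of them, and it had the highest skeletal muscle score of all arrays, 2.46, and the highest macrophage score, 0.83. Its erythroid score, -0.632, was the lowest of all arrays. Without it the mitosis median was -0.0636 with 15 of 20 genes below 0. Mcm5 read 12.84, 13.01 and 13.03 in knockouts, against 12.98, 13.02 and 13.13 in controls, and Pcna read 13.59, 13.68 and 13.73, against 13.64, 13.73 and 13.57, both with overlap. Cdkn1b read 11.51, 11.64 and 11.58 in knockouts, against 11.67, 11.59 and 11.73 in controls. Skeletal muscle markers differed in this region too, at 2.46, 1.72 and 1.32 in knockouts, against -1.05, 1.04 and -2.50 in controls, and their part in the D cyclin values was not tested.

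The proximal mandible gave smaller differences, with 20 of 20 mitosis genes below 0 at a median of -0.092, beside 50% of all genes tested. No cell cycle gene was called (8 genes in all, 0.0538%), and 0 had an unadjusted p under 0.05 (2.86% of all genes). Foxm1 came nearest at -0.25 ± 0.13, followed by E2f1 at -0.15 ± 0.08 and Ube2c at -0.13 ± 0.10 (unadjusted p = 0.0798, 0.101 and 0.218). Mki67 read 12.93, 13.13 and 13.04 in knockouts, against 13.07, 13.13 and 13.21 in controls, and Top2a read 12.90, 13.24 and 13.11, against 13.12, 13.19 and 13.15. Knockout 1 was again the lowest array. Cdk1 read 12.07, 12.24 and 12.29 in knockouts, against 12.26, 12.29 and 12.25 in controls, and Cdc20 read 12.64, 12.92 and 12.86, against 12.86, 12.84 and 12.84. Without knockout 1 the median was -0.0211 with 15 of 20 genes below 0. Neuronal markers had lower knockout means here, unlike in the proximal maxilla, in 12 of 12 (median -1.19, 2 called), with scores of -0.91, -0.76 and -1.23 in knockouts, against 1.07, 0.67 and 0.31 in controls. Epithelial markers were higher in 12 of 12 means (median 0.962, 0 called, 6 by unadjusted p under 0.05), and the part of either list was not tested. Ccnd1 read 12.83, 13.26 and 13.29 in knockouts, against 13.26, 13.30 and 13.28 in controls, and Ccnd2 read 13.45, 13.80 and 13.66, against 13.63, 13.57 and 13.57. Mcm5 read 12.91, 13.01 and 13.02 in knockouts, against 12.98, 13.01 and 13.06 in controls. Of the 20 mitosis genes, Kif11 and Foxm1 had every knockout array below every control array, as had 4.15% of all genes tested. Pcna read 13.61, 13.65 and 13.66 in knockouts, against 13.62, 13.75 and 13.69 in controls, and Cdkn1b read 11.56, 11.70 and 11.66, against 11.64, 11.55 and 11.74.

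The distal maxilla differed least, with 15 of 20 mitosis genes below 0 (44.1% of all genes tested) and a median of -0.0526. No cell cycle gene was called (3 genes in all, 0.0202%), and 0 had an unadjusted p under 0.05 (2.65% of all genes). Ccnd2 read 13.56, 13.76 and 13.55 in knockouts, against 13.43, 13.46 and 13.49 in controls, all higher in knockouts as for 4.07% of all genes tested (0.16 ± 0.11, unadjusted p = 0.154). Ccnd3 gave 0.15 ± 0.12 and Bub1, a kinase of the spindle checkpoint, -0.18 ± 0.14 (unadjusted p = 0.2 and 0.212). Mki67 read 13.14, 13.26 and 13.12 in knockouts, against 13.12, 13.22 and 13.16 in controls, and Top2a read 13.07, 13.24 and 13.14, against 13.16, 13.27 and 13.17. Cdk1 read 12.28, 12.40 and 12.24 in knockouts, against 12.28, 12.33 and 12.25 in controls, and Cdc20 read 12.98, 13.13 and 13.03, against 13.09, 13.08 and 13.18. These markers of dividing cells overlapped between the genotypes. The mitosis gene Ccna2 had every knockout array below every control array, as had 2.84% of all genes tested. Skeletal muscle markers had higher knockout means in 11 of 12 cases (median 1.31), glial ones in 5 of 5 and epithelial ones in 9 of 12, with 0 called and 0 under an unadjusted p of 0.05. Mcm5 read 12.91, 13.05 and 12.90 in knockouts, against 12.94, 13.01 and 13.04 in controls, and Pcna read 13.55, 13.60 and 13.48, against 13.51, 13.57 and 13.44. Ccnd1 read 12.84, 12.75 and 12.94 in knockouts, against 13.14, 12.63 and 12.35 in controls, and Cdkn1b read 11.78, 11.85 and 11.95, against 12.01, 11.77 and 12.06.

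Whether the knockout effect differed between the jaws (averaged over the ends) or between the ends (averaged over the jaws) was tested directly. No cell cycle gene passed for mandible minus maxilla (5 genes in all, 0.0336%) or for distal minus proximal (1 gene, 0.00672%), and 0 and 3 had an unadjusted p under 0.05 (6.62% and 4.29% of all genes). The 3 genes were Ccnd1, Mcm2 and Ccnd2, with a knockout effect higher at the distal ends by 0.36 ± 0.16, 0.19 ± 0.09 and 0.23 ± 0.11 (SE, adjusted p = 1 for each). For mandible minus maxilla the smallest unadjusted p belonged to Ccne1 (0.24 ± 0.14), Plk1 (0.19 ± 0.13) and E2f2 (0.19 ± 0.14). Neither test sets the proximal maxilla alone against the other regions. Whether its larger count of falls sets that region apart was therefore not tested.

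Most cell cycle genes outside the list also had lower means in knockouts. Of 25 further S phase genes tested, all 25 had a lower knockout mean over the regions (median -0.139), and 2 were called, where 46.3% of all genes tested lay below 0 and 0.47% were called. These were Pole, the catalytic subunit of DNA polymerase epsilon, at -0.32 ± 0.06, and Chaf1b, a subunit of the chromatin assembly factor, at -0.29 ± 0.06 (SE, adjusted p = 0.0347 for both). Of 32 further mitosis genes 31 were lower (median -0.18) and 0 called (24 lower by unadjusted p under 0.05, beside 10.6% of all genes). Of 25 further G1 genes 17 were lower (median -0.0315) and 0 called, with 8 lower and 4 higher by unadjusted p. In the proximal maxilla, where 5.77% of all genes were called and 2.53% called lower, 5 of the 25 S phase genes fell, among them Chaf1b (-0.59 ± 0.12), Pole (-0.54 ± 0.12), the licensing inhibitor Gmnn (-0.47 ± 0.13) and the checkpoint kinase Chek1 (-0.46 ± 0.13). Dlgap5 and Tpx2, both spindle assembly factors, fell by 0.53 ± 0.15 and 0.47 ± 0.13. Of the G1 genes Lin9 of the MuvB complex (-0.68 ± 0.19), Mybl2, which encodes B-Myb (-0.67 ± 0.14), and Skp2, which directs Cdkn1b to the proteasome (-0.37 ± 0.10), fell. The Cdk4 and Cdk6 inhibitor Cdkn2d rose by 0.39 ± 0.09 (adjusted p = 0.0211). Without knockout maxilla proximal 1 and 2, 0 genes of these lists were called in either comparison. Over the regions 23 of 25 S phase genes (median -0.0897) and 31 of 32 mitosis genes (median -0.121) were then still below 0, with 6 and 14 under an unadjusted p of 0.05.

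Promoter elements known from cell cycle genes were counted by phase. RefSeq promoters (GRCm38.p6, 250 bases before to 50 after the start) were found for 36 of the 44 listed genes and searched on both strands for 3 elements. The CHR element (TTTGAA or TTCGAA), which the MuvB complex binds, was in 14 of 17 mitosis, 3 of 12 S phase and 1 of 7 G1 genes, and in 21.7% of the 27025 genes of the table. CCAAT, read by NF-Y, was in 16 of 17, 9 of 12 and 4 of 7, and in 41.1% of all. An E2F site in its strict forms (TTTCGCGC or TTTGGCGC) was in 1 of 17, 5 of 12 and 1 of 7, and in 0.929% of all. A match is a run of letters and not shown to be bound here. For the further lists, CHR letters were in 16 of 25 mitosis, 4 of 22 S phase and 8 of 20 G1 promoters.

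The 250 bases before the start are shown for 3 mitosis genes with CHR letters and 2 helicase genes with E2F letters. Capitals mark the CHR, CCAAT and E2F letters, and none of the different elements overlap there.
Ube2c, chr2:164769679-164769928, plus strand: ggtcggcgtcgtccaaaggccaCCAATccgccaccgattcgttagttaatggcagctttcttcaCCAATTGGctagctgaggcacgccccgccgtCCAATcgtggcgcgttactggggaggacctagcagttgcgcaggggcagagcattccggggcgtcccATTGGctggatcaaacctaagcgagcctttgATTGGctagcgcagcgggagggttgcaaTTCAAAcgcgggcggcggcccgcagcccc
Cdk1, chr10:69352913-69353162, minus strand: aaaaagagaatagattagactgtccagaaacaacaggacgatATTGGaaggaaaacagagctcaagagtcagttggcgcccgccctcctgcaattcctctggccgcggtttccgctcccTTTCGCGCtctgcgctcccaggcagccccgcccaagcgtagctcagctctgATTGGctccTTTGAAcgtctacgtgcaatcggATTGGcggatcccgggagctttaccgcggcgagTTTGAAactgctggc
Cdc20, chr4:118437344-118437593, minus strand: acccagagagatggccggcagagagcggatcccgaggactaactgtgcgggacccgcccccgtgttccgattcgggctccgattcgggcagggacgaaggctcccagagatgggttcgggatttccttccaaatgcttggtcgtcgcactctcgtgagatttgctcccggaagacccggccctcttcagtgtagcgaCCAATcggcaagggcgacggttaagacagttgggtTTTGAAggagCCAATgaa
Mcm5, chr8:75109259-75109508, plus strand: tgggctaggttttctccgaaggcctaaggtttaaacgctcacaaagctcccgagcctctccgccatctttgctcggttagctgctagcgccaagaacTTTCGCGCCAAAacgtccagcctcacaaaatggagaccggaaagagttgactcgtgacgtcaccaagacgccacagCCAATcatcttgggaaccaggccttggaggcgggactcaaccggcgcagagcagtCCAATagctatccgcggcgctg
Mcm6, chr1:128359706-128359955, minus strand: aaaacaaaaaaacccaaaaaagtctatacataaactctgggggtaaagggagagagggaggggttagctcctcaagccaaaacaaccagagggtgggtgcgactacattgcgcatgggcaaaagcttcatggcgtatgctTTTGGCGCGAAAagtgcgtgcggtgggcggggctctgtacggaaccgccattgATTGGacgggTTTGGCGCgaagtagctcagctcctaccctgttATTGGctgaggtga

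In Ube2c the CHR letters (TTCAAA on the strand shown) begin 29 bases before the start, in Cdc20 18 bases and in Cdk1 at 71 and 15 bases. The E2F letters of Mcm5 begin 153 and 149 bases before the start, as a run with both orientations in one, and those of Mcm6 at 110, 106 and 47. Cdk1 was the one mitosis gene with E2F letters. In Plk1 the CHR letters lie after the start, at base 31.

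Between the ends of the jaws, the means of the mitosis genes lay above 0 without any passing the adjusted threshold. Over both genotypes and jaws all 20 had a higher distal mean (median 0.124), as had 12 of 13 S phase genes (median 0.0804), while 44.6% of all genes tested were higher distally. Without blocks by array number, no cell cycle gene was called (575 genes in all, 3.86%). Counts with such blocks were higher and are given further below. By unadjusted p under 0.05 in limma 11 passed, as did 26% of all genes tested. The smallest p was that of Ccnd1, which went the other way at -0.25 ± 0.08 (adjusted p = 0.0745). The markers of other cells went along, with distal means lower in 12 of 12 neuronal (median -0.997, 7 called), 5 of 5 glial (4 called) and 12 of 12 skeletal muscle markers (median -1.33, 0 called) and higher in 12 of 12 epithelial ones (median 0.67, 3 called). Their part was not tested. Ttk gave 0.19 ± 0.07 and Cenpa, the histone of the centromere, 0.17 ± 0.06 (adjusted p = 0.0945 and 0.0962). Without both ends of knockout mandible 1 and control maxilla 1, 6 cell cycle genes passed, with 19 of 20 mitosis genes higher distally. The other arrays closer to the other end of their jaw stayed in. Without knockout maxilla proximal 1 and 2 the mitosis median was 0.0704, with 19 of 20 genes higher. With 1 array left out, 8 genes passed without knockout mandible distal 1 and 7 without knockout maxilla proximal 3, and 1 passed without knockout mandible proximal 1 or without number 1 of either control maxilla group.

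The control mandible carried the one call. Ccnd1 read 12.65, 12.71 and 12.56 distally, against 13.26, 13.30 and 13.28 proximally, with no overlap (18.7% of all genes tested were lower without overlap) and a fall of 0.64 ± 0.16 (SE, adjusted p = 0.0355). In this comparison 3.45% of all genes tested were called, and 2.34% were lower distally. Ccnd2, at 13.38, 13.28 and 13.10 distally, against 13.63, 13.57 and 13.57 proximally, gave -0.33 ± 0.11 (adjusted p = 0.0968). The mitosis genes lay on the other side, 19 of 20 above 0 (44.5% of all genes tested) with a median of 0.124, and 9 of them had every distal array above every proximal one, as had 11.7% of all genes tested. Cdc20 read 13.05, 12.95 and 13.06 distally, against 12.86, 12.84 and 12.84 proximally. Kif11 gave 0.27 ± 0.16 and Cdc20 0.17 ± 0.11, with adjusted p of 0.387 and 0.431. Muscle, neuronal and glial scores were low in the distal piece of this jaw: muscle stood at -1.05, 1.04 and -2.50 distally, against 1.93, 1.99 and 1.67 proximally, and neuronal markers at -1.51, -0.89 and -1.55, against 1.07, 0.67 and 0.31. Their part in these values was not tested. The Ccnd1 call was lost without any 1 of the 6 arrays compared other than distal 2 (adjusted p between 0.0953 and 0.158) and without the 4 control arrays numbered 2. Without knockout maxilla proximal 1, outside the comparison, 2 genes were called.

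Further genes of the cycle differed between the ends of the control mandible. Cdkn1a, the p21 inhibitor, fell by 1.26 ± 0.27 distally (SE, adjusted p = 0.0167). Cdkn2c, the p18 inhibitor of Cdk4 and Cdk6, rose by 0.79 ± 0.18 (adjusted p = 0.0239). These were the 2 called of 25 further G1 genes, with 0 of 25 S phase genes and 0 of 32 mitosis genes called (0 and 1 by unadjusted p under 0.05). Of all genes tested 3.45% were called in this comparison, and 18.6% had an unadjusted p under 0.05.

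In the fit without blocks by array number, none of the other jaws had a call between the ends. In the knockout mandible, 16 of 20 mitosis genes were higher distally (43.6% of all genes tested) with a median of 0.0316. In the control maxilla it was also 16 of 20 (42.4% of all genes tested), with a median of 0.0207. Neither comparison called any gene of the array (0%). In both, 0 cell cycle genes had an unadjusted p under 0.05 in limma, beside 0.484% of all genes in the knockout mandible and 0.692% in the control maxilla. In the knockout mandible, leaving out single arrays gave 0 to 20 of 20 mitosis genes lower distally, with medians between -0.0616 and 0.154. Its direction thus rested on single arrays, and both its arrays numbered 1 stood closer to the other end by profile. In the knockout mandible E2f1 (0.13 ± 0.08), Ccne1 (0.11 ± 0.14) and Cdkn1b (-0.07 ± 0.08) had the smallest p, and in the control maxilla Ccnd1 (-0.22 ± 0.16), Ccne2 (0.25 ± 0.19) and Cdkn1b (0.09 ± 0.08). The knockout maxilla gave a median of 0.285 with 20 of 20 mitosis genes higher distally (51.9% of all genes tested). There 0 of 43 were called without blocks by array number (917 genes in all, 6.16%), while fits with such blocks, given further below, called more. By unadjusted p under 0.05 in limma 22 of 43 passed (27.2% of all genes). Ube2c was nearest the threshold (0.34 ± 0.10, adjusted p = 0.0549), then the helicase subunit Mcm2 (0.30 ± 0.09, adjusted p = 0.0567) and Cdk1 (0.27 ± 0.09, adjusted p = 0.0654). It shares the 3 proximal knockout arrays with the genotype comparison of that region, and without arrays 1 and 2 its mitosis median was 0.0648. Without array 3 alone 23 genes were called, without knockout mandible distal 1 there were 7 and without knockout mandible distal 3 there was 1. Of the further lists, Dlgap5 (0.51 ± 0.15), Chaf1b (0.47 ± 0.12), Gmnn (0.46 ± 0.13), the clamp loader subunit Rfc5 (0.36 ± 0.09), Lin9 (0.65 ± 0.19) and Mybl2 (0.51 ± 0.14) were called higher distally and Cdkn2d (-0.35 ± 0.09) lower. Without knockout maxilla proximal 1 and 2, 0 of these lists' genes were called there.

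Between the jaws, genes of the passage from G1 to S phase were among those called. Both E cyclins, their kinase Cdk2, the origin licensing factor Cdc6 and Pcna were higher in the mandible, and the inhibitor Cdkn1b was lower. Of the 43 genes 15 rose and 1 fell, which is 16 of 43. The jaws differed in much of the array, with 46.6% of all genes tested called, 25.1% higher and 21.4% lower, so the number of cell cycle genes called is not above that background. By phase 5 of 10 G1 genes, 5 of 13 S phase genes and 6 of 20 mitosis genes were called. The medians were 0.148 for G1, 0.0821 for S phase and 0.0494 for mitosis genes, and 0.0212 for all genes tested. Markers of other cells differed between the jaws as well. All 12 skeletal muscle markers were called higher in the mandible (median 2.76), 9 of 12 neuronal markers were called lower (median -1.15), and of 12 epithelial markers 3 were called higher and 5 lower. Their part in the jaw differences was not tested.

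Ccne2 ranged over 10.39, 10.61 and 10.96 in the mandible (lowest, median and highest of 12 arrays), against 9.49, 10.19 and 10.45 in the maxilla. Ccne1 ranged over 11.50, 11.63 and 11.92 in the mandible, against 10.91, 11.37 and 11.56 in the maxilla. The ranges overlapped at their edges for both, while the medians were apart. The differences were 0.50 ± 0.09 for Ccne2 (adjusted p = 0.000326) and 0.34 ± 0.07 for Ccne1 (adjusted p = 0.000627). Cdk2 ranged over 12.07, 12.28 and 12.34 in the mandible, against 11.91, 12.07 and 12.16 in the maxilla, a difference of 0.21 ± 0.03 (adjusted p = 6.85e-05). Cdkn1b, which binds the cyclin E and Cdk2 complex, ranged over 11.51, 11.64 and 11.74 in the mandible, against 11.64, 11.84 and 12.06 in the maxilla, a difference of -0.23 ± 0.04 (adjusted p = 0.00025). Its mandible mean was lower in both genotypes and at both ends, with differences of -0.28 and -0.14 in distal and proximal knockouts and of -0.28 and -0.21 in distal and proximal controls.

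In S phase, Cdc6 ranged over 10.33, 10.66 and 10.87 in the mandible, against 9.66, 10.34 and 10.64 in the maxilla (0.34 ± 0.08, adjusted p = 0.00229). Pcna ranged over 13.57, 13.65 and 13.75 in the mandible, against 13.38, 13.50 and 13.60 in the maxilla (0.17 ± 0.03, adjusted p = 0.000218). Of the 6 helicase subunits Mcm4 rose by 0.21 ± 0.04, with Mcm3 and Mcm6 among the further 6 genes called, whereas Mcm5 ranged over 12.84, 13.01 and 13.13 in the mandible, against 12.70, 12.96 and 13.05 in the maxilla (0.06 ± 0.04, adjusted p = 0.174). The helicase genes thus did not all pass the test.

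In mitosis, Kif20a, a motor of cytokinesis, ranged over 10.78, 11.05 and 11.32 in the mandible, against 9.94, 10.65 and 10.87 in the maxilla (0.44 ± 0.07, adjusted p = 7.45e-05). The Aurora kinases and Birc5, the survivin of the chromosome passenger complex, rose with it: Aurka by 0.29 ± 0.08, Aurkb by 0.25 ± 0.08 and Birc5 by 0.25 ± 0.06 (adjusted p = 0.00484, 0.0193 and 0.00155). Mki67, Top2a and Cdk1 gave 0.04 ± 0.06, -0.0012 ± 0.05 and 0.019 ± 0.04 and did not pass. Cdc20 ranged over 12.62, 12.89 and 13.06 in the mandible, against 12.50, 13.05 and 13.18 in the maxilla, and its value of -0.13 ± 0.05 (adjusted p = 0.0613) lay on the other side of 0. Without knockout maxilla proximal 1 and 2 the mitosis median was -0.00904 and 11 of 20 genes were lower in the mandible, so the direction of the mitosis genes between the jaws rested on these arrays. In that fit Aurkb, Bub1 and Ccnb2 were no longer called (adjusted p = 0.0731, 0.0749 and 0.084), and Cdc20, Plk1, Cenpf and Mcm2 were called lower in the mandible. Ccnd1 and Ccnd2 gave 0.18 ± 0.08 and 0.0027 ± 0.05 (adjusted p = 0.0788 and 0.97).

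**Figure D4:**
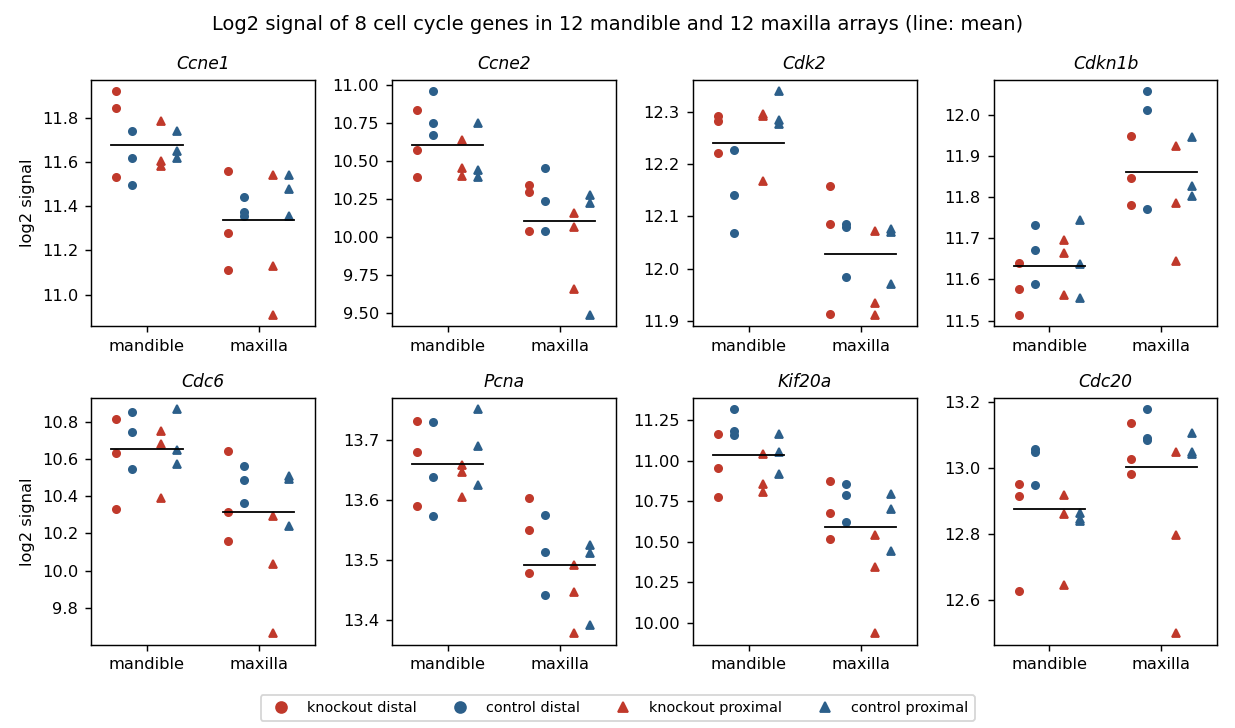
Log2 signal (vertical axis, a range of its own for each gene) of 8 cell cycle genes in 12 mandible and 12 maxilla arrays, red for knockout and blue for control, circles for distal and triangles for proximal ends. The line is the mean of the 12 arrays. The mandible points lie mostly above the maxilla points for 6 of the 8 genes, as for Cdk2 with means of 12.24 and 12.03, and below them for Cdkn1b, with 11.63 and 11.86.

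Of the further lists 13 of 25 G1 genes were called between the jaws, 10 higher and 3 lower. Cdkn1c, the p57 inhibitor, rose by 0.51 ± 0.06, the repressor E2f6 by 0.35 ± 0.05 and E2f5 by 0.32 ± 0.07, and Rb1, which encodes the retinoblastoma protein, fell by 0.48 ± 0.09 (SE, adjusted p of 0.00104 or below for each). The 11 called of 25 S phase genes were all higher, with Rfc4 (0.46 ± 0.06), Orc6 (0.39 ± 0.04), Orc1 (0.36 ± 0.09) and Tk1 (0.32 ± 0.06) the largest. The 4 called of 32 mitosis genes were higher too, namely Anln (0.28 ± 0.05), Ckap2 (0.20 ± 0.05), Melk (0.18 ± 0.07) and Smc4 (0.14 ± 0.04). With 46.6% of all genes called in either direction, these shares are near it for S phase and G1 genes and below it for mitosis. The 11 S phase calls and 10 of the 13 G1 calls were higher, where 25.1% of all genes tested were called higher and 21.4% lower. Without knockout maxilla proximal 1 and 2 the mitosis list had 20 of 32 genes lower in the mandible (median -0.0297). The called genes then numbered 9, with Melk no longer among them, and were Hmmr, Anln, Kif22, Cdca3, Cdca8, Ckap2, Smc4, Ncaph and Incenp.

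A sign of RNA quality moved with the jaw. The 3' minus 5' difference of the Gapdh control probe sets was 0.0446 ± 0.0562 in the mandible and 0.186 ± 0.0871 in the maxilla (SD, n = 12 each), and that of Actb 0.332 ± 0.063 and 0.404 ± 0.0678. By genotype the values were 0.086 ± 0.076 in knockouts and 0.145 ± 0.118 in controls for Gapdh and 0.342 ± 0.0609 and 0.394 ± 0.0792 for Actb (SD, n = 12 each). Between the ends Actb gave 0.395 ± 0.0737 distally and 0.341 ± 0.0669 proximally, and Gapdh 0.121 ± 0.096 and 0.109 ± 0.111. With the Gapdh difference as a covariate, an alternative chosen after the data were seen, 5 cell cycle genes and 2658 genes in all were called between the jaws. The 5 were Cdk2, Ccne1, Cdc6, Mcm3 and Kif20a, all higher in the mandible, and the mitosis median was 0.142. Cdkn1b did not pass in that fit, at -0.137 (adjusted p = 0.116), nor did Ccne2, at 0.314 (adjusted p = 0.117). The share of RNA quality in the jaw differences was not otherwise tested.

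Probe sets of one gene also differed in what they gave. Of 32 cell cycle genes with more than 1 probe set tested, 20 had another probe set with a larger mandible minus maxilla change than the brightest one. For Rrm2 the values were 0.07, 0.25 and 0.75 in order of brightness, and for Rrm1, the large ribonucleotide reductase subunit, 0.12 and 0.72. Ccna2, the cyclin of S phase and G2, gave 0.01 and 0.36, and Cdt1 gave 0.05 and 0.36. The brightest probe set of these 4 genes was not called, and 11 genes not called between the jaws had another probe set called higher in the mandible. Over all genes, 13143 of 27655 probe sets tested were called between the jaws in either direction, so such calls are frequent on the array. Cdkn1b had a dim second probe set, which gave 0.13 and did not pass (adjusted p = 0.354), and the mean of both probe sets gave -0.053 (adjusted p = 0.507), while the second Ccne1 probe set gave 0.48 (adjusted p = 8.003e-05).

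**Figure D5:**
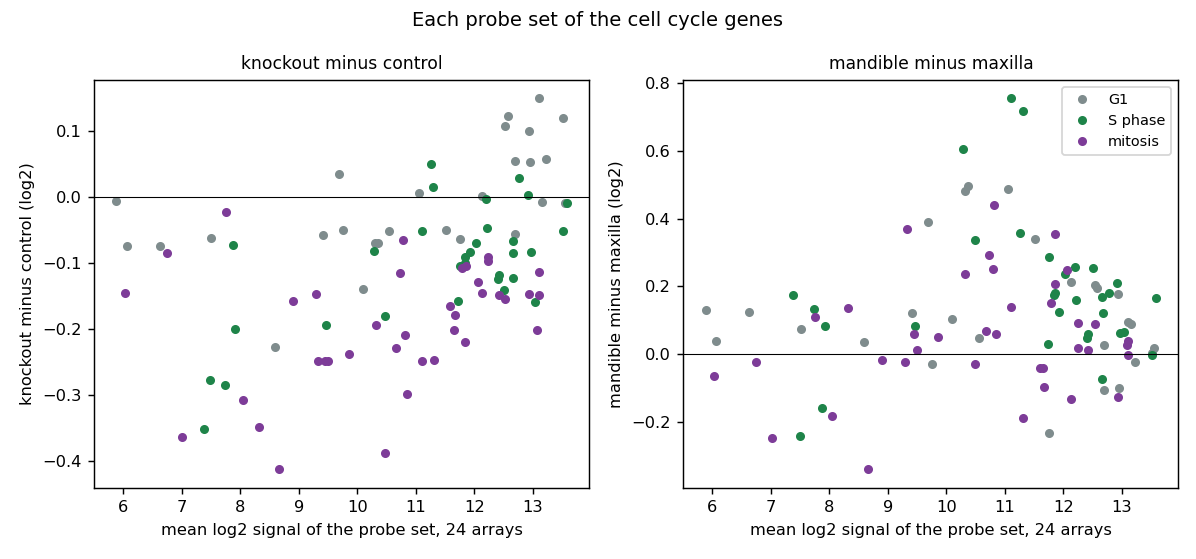
Change of each of the 96 probe sets tested for the cell cycle genes (points, coloured by phase) against its mean log2 signal over 24 arrays (horizontal axis), for knockout minus control (left, log2) and mandible minus maxilla (right, log2). The mitosis points lie below 0 on the left for all 38 probe sets, while on the right the highest value is 0.75, the third probe set of Rrm2, with a mean signal of 11.1.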

How the data were processed

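The deposited table holds log2 signal for 45101 probe sets on 24 single-colour arrays, made by the authors with RMA per the submitters' processing notes, which give no version. Control probe sets (64) were left out. In the platform annotation 34945 probe sets have 1 symbol and 932 have several, none of which were named. For 34741 probe sets the Entrez identifier matched a RefSeq gene, whose symbol was used. The others kept the platform symbol. No array was normalized again. Per gene the probe set with the highest mean over all arrays was kept, and genes above the 30th percentile of the array (5.85 to 5.93) in at least 3 arrays were tested.

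Means of 8 groups were fitted with limma 3.58.1 (lmFit and eBayes, R 4.3.3) with 16 residual degrees of freedom. Each of 13 comparisons was a contrast of these means, with Benjamini-Hochberg adjustment over 14879 genes, and a gene was called at an adjusted p under 0.05. Errors of changes are standard errors of the fit. In each comparison every called cell cycle gene was named, the 10 with the largest change where more passed, or the 3 with the smallest p where none passed. Values by array were always given for Mki67, Top2a, Cdk1, Cdc20, Mcm5, Pcna, Ccnd1, Ccnd2 and Cdkn1b. Of the further cell cycle lists, at most the 4 largest calls of each were named. A score is the mean, over the genes of a list, of the deviation from the mean of 24 arrays. The cell cycle genes, the further lists and the tests were chosen with earlier results of these data known. The test was run on simulated data with known changes first. Alternatives covered the filter, the choice of probe set, the scaling, the prior, array weights, blocks by array number and arrays left out. The closest pair of arrays differed by a root mean square of 0.196, so none were duplicates. The number of arrays limits the precision.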

Additional observations from a re-analysis of the deposited data

How the results depend on the processing

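None of the called genes among the 43 changed sign under any alternative run. The called genes of the further lists were not checked for this. The arrays nearer the other end that were left out are the 4 numbered 1 of knockout mandible and control maxilla. The counts of cell cycle genes called, of 43, moved as follows. For knockout against control over the 4 regions (0 called) the 50th percentile filter gave 1, a trended robust prior 1 and array weights 14, and leaving out each array in turn gave 0 to 18. For the proximal maxilla (3 called) array weights gave 24, a fit of only the groups compared gave 0, and leaving out each array gave 0 to 24. The count there was 0 without the 4 arrays nearer the other end, without the 4 arrays that carry Y-linked signal, with knockout maxilla proximal 1 and 2 left out, without the 3 arrays lowest in mitosis genes and without the 4 knockout arrays numbered 1, the last 2 settings chosen after seeing the data. For distal against proximal over all (0 called) array weights gave 24, leaving out the 4 arrays nearer the other end gave 6, the 4 knockout arrays numbered 1 gave 7, and each array in turn 0 to 8. For the control mandible (1 called) the mean of all probe sets gave 0, array weights 5, leaving out the arrays with Y-linked signal 0, and each of the 3 other sets of arrays 2, with 0 to 2 for single arrays. For the knockout maxilla (0 called) the trended robust prior gave 2, array weights 25, leaving out the arrays nearer the other end 6, and single arrays 0 to 23, and for the control maxilla (0 called) leaving out the arrays nearer the other end gave 1. Between the jaws (16 called) the Gapdh covariate gave 5 and single arrays 15 to 20. The cause of these moves was not tested.

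The labels number the arrays 1 to 3 in every group. Deviations of arrays with the same genotype and number correlated over 0.1 in 23 of 36 pairs (median 0.152), and those of knockout and control arrays of a region in 5 of 12, so the numbers did not meet the bar set for a pairing. As hints from the data, 20 of 24 arrays were closest to their own number within their genotype, and Y-linked signal was present in all 4 control arrays numbered 2 and in none of the other 20, and what the numbers stand for was not tested. With the number as a fixed replicate block, 12 genes were called for knockout against control over the regions, 17 in the proximal maxilla, 5 between the ends over all and 14 between the ends of the knockout maxilla. With genotype and number as a random replicate block the counts were 6 in the proximal maxilla, 5 between the ends over all, 2 in the control mandible and 11 in the knockout maxilla. As a fixed replicate block these gave 10 between the ends over all, 2 in the control mandible and 22 in the knockout maxilla. That block lies within genotype and could not be fitted for knockout against control.

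Over all 14879 genes the knockout comparison called 70 genes, and 2906 with array weights, 1102 with the number block, 258 with the 50th percentile filter, 192 with the trended robust prior, 165 with cyclic loess and 6 with the random block. The proximal maxilla called 859, against 3245 with array weights, 1717 with the number block and 0 in a fit of its own groups. Between the ends over all, 575 genes were called, 5168 with array weights and 2644 without the arrays nearer the other end, and 3 without those with Y-linked signal. Calls of Plk1 and Ube2c held in 26 of 39 settings each, that of E2f1 in 8 of 39 and that of Ccnd1 in the control mandible in 33 of 40. Limits are 3 arrays a group, unknown embryos, a whole-tissue measurement and arrays whose profiles stand nearer the other end.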
